A study of Mus musculus with 7 samples.

Results

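Semaphorins, ephrins, netrins, netrin-Gs and Slits are cues that steer growing axons and migrating neurons. Plexins, neuropilins, Eph receptors, Dcc and the Unc5 proteins, and Robo receptors are surface proteins that read many such cues. Protein-coding genes were taken by family symbol and without a limit on expression, though with earlier results of these data known. The Robo family was limited to Robo1, Robo2 and Robo3. This gave 71 gene entries of the 47729 in the count table, 38 for cues and 33 for receptors. The largest families were the semaphorins with 20 genes and the Eph receptors with 14, followed by 9 plexins, 8 ephrins, 5 netrin entries, 5 netrin receptors, 3 Slits, 3 Robo receptors, 2 netrin-Gs and 2 neuropilins. The 71 entries carried 69 symbols, because Ntn5 stood under 3 overlapping gene identifiers. Another 3 genes had a matching name, all antisense transcripts of Plxna4, and were not protein-coding.

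RNA was sequenced from whole forebrain of mice at postnatal day 15 that were heterozygous (Lhx6+/-, control, 4 pools) or homozygous (Lhx6-/-, mutant, 3 pools) for a null allele of Lhx6 (Lhx6tm2Vpa in the methods of the study), the LIM-homeodomain gene expressed in interneurons born in the medial ganglionic eminence (MGE). Each pool held 2 animals of strain F1(C57BL/6 X 129Sv), so the controls also carried 1 mutant allele and no wild-type mice were compared. The sex of the animals and the RNA integrity were recorded per pool, but the columns of the count table named only a genotype and a library number and could not be tied to them. Because whole forebrain was used, fewer cells of a type and less RNA per cell cannot be told apart, and p-values measure the spread between pools.

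Class 3 semaphorins are secreted and act mostly through neuropilins paired with A-type plexins, whereas the other vertebrate semaphorins are anchored to the membrane and bind plexins directly. Ephrins and Eph receptors are both membrane proteins and signal where cells touch. Slits bind receptors of the Robo family, though not every member need do so, and netrins bind Dcc and the Unc5 family. In the embryonic forebrain such cues route MGE interneurons around the striatum and into the cortex, and after birth many of the same genes serve in synapse formation, myelinating cells and blood vessels.

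Libraries held between 32556304 and 38069151 counts, so 3 counts, the upper limit that a count of 0 allows, corresponded to at most 0.0921 CPM (counts scaled to library size). Values below are normalized counts, that is, counts over the effective library size. Lhx6 itself stood at 615, 522, 476 and 522 in control libraries 2, 3, 10 and 11 and at 70.9, 76.6 and 70.1 in mutant libraries 5, 12 and 13, a log2 fold change of -2.88 (edgeR's quasi-likelihood F-test, Benjamini-Hochberg adjusted p = 5.99e-05). The first principal component, with 39.6% of the variance, separated libraries 2, 3 and 5 from libraries 10 to 13, and the second, with 23.4%, separated the genotypes. What the 2 runs of library numbers stand for is not given in the sources used here, so changes within each run are given beside the results. For libraries 10 to 13 the changes come from an edgeR fit, and for libraries 2, 3 and 5 they are differences of mean log2 CPM. Forebrain identity genes were present in every library, and 2 of 6 hindbrain markers passed the count minimum. Among marker lists, the summed level in mutants was 56.2% of control for MGE interneurons, 170% for caudal ganglionic eminence interneurons, 136% for astrocytes, 69.7% for oligodendrocytes, 128% for endothelial and mural cells and 65.3% for choroid plexus, and the other lists lay between 71.8% and 139%. Abundant markers weigh most in these sums, such as Slc1a2 among astrocytes (means of 197129 in controls and 267793 in mutants, not called). EdgeR called 7 of 10 MGE markers lower and 1 higher, 6 of 11 caudal ganglionic eminence markers higher and 2 of 10 astrocyte markers higher. The choroid plexus sums overlapped, at 4649 to 9906 in controls and 2269 to 7589 in mutants.

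To ask which guidance genes differed between the genotypes, the mutant and control pools were compared. A total of 8 of the 70 members tested passed at an adjusted p of 0.05 or less, 11.4%, where 4.85% of all 19684 genes tested did so. The cues Sema3c, Sema3e and Efna1 rose in mutants, and the cues Efnb3 and Sema4f and the receptors Robo3, Plxnc1 and Epha7 fell. Of all genes, 2.97% were called higher and 1.87% lower. By edgeR, no receptor of 33 was called higher, although 4 had a positive change with an unadjusted p of 0.05 or less, and DESeq2 called 3 of these 4. The median log2 fold change was -0.03 over the members and -0.01 over all genes. Control library 3, which was the lowest of the controls for 42 of the 70 members, was then left out, and 11 members were called (3 higher, 8 lower) beside 971 of 19409 genes tested, with Epha8, Plxna3, Plxnd1 and Sema4d added and Epha7 lost. Leaving out another library lowered the count, to 3 without mutant library 12 or 13, to 4 without control library 11 or mutant library 5, and to 6 without control library 2 or 10. Calls over all genes fell as well, from 585 higher and 369 lower. They were 252 and 135 without mutant library 12, 223 and 79 without mutant library 13, and 321 and 137 without mutant library 5. Without control library 2, 10 or 11 they were 441 and 238, 333 and 180, and 383 and 206.

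**Figure D1:**
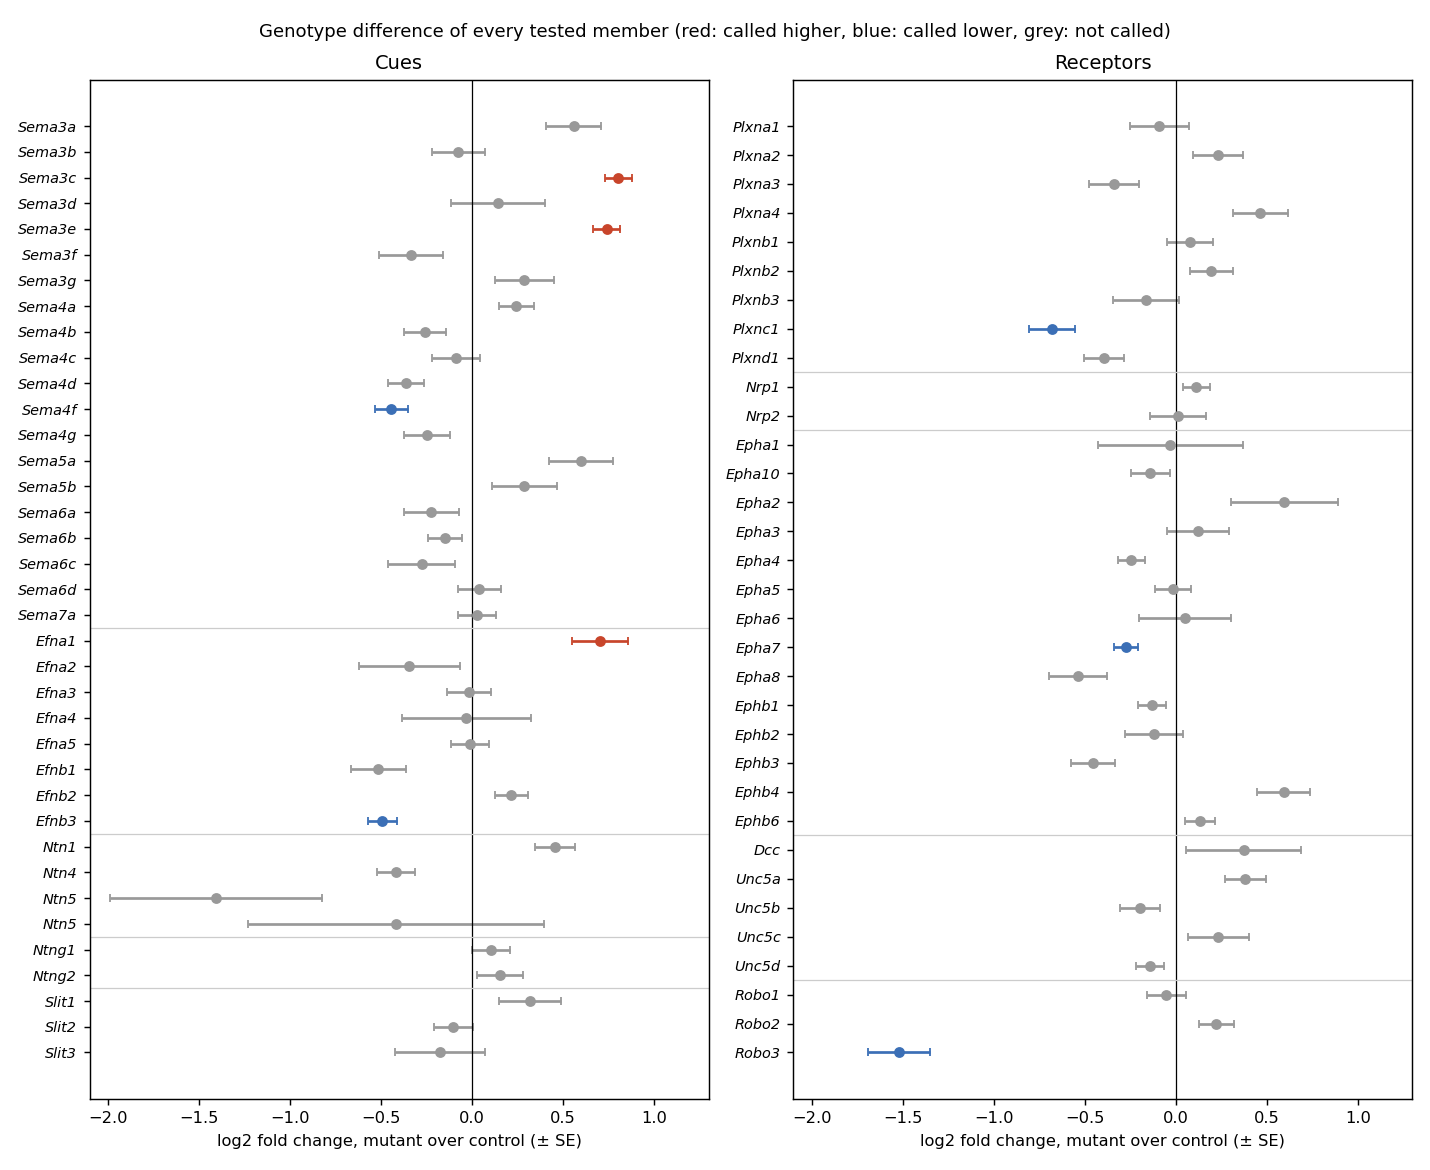
Log2 fold change (mutant minus control, x axis, error bars 1 SE of the edgeR fit) for each of the 70 members tested, in panels for cues and receptors and ordered by family, with members called higher in red and called lower in blue. Robo3 at -1.52 lies apart on the lower side, Sema3c at 0.80 and Sema3e at 0.74 lead the higher side, and the rows marked Ntn5 (2 of its 3 gene entries) have wide errors.

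The largest increases were those of a pair of secreted class 3 semaphorins. Sema3c (chromosome 5, 17574281 to 17730268, GRCm38, plus strand), which binds neuropilins, measured 1438, 1407, 1524 and 1478 in the 4 control libraries and 2387, 2752 and 2520 in the 3 mutant libraries. Every mutant library lay far above every control library. The mean rose from 1462 ± 50.5 (SD, n = 4) to 2553 ± 185 (SD, n = 3), a log2 fold change of 0.80 (SE 0.0753, adjusted p = 0.000925, edgeR). Sema3e (chromosome 5, 14025276 to 14256689, plus strand), which unlike its relatives can signal through Plxnd1 without a neuropilin, measured 1274, 1337, 1368 and 1375 in controls and 2101, 2404 and 2209 in mutants. The groups again stood clear of each other, and the spread within each was small beside the gap. The mean rose from 1339 ± 46.0 (SD, n = 4) to 2238 ± 154 (SD, n = 3), a log2 fold change of 0.74 (SE 0.0745, adjusted p = 0.00133, edgeR). Within libraries 2, 3 and 5 the changes were 0.75 for Sema3c and 0.69 for Sema3e, and within libraries 10 to 13 they were 0.82 and 0.76. Both genes were called in all 16 alternative fits.

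Sema3c and Sema3e lie on chromosome 5 with Sema3d and Sema3a, all 4 within 5.35 Mb. Sema3a, the prototype repellent of this class, measured 627 to 884 in controls and 929 to 1227 in mutants, with every mutant library above every control library, but did not pass (log2 fold change 0.56, adjusted p = 0.0776, edgeR). For Sema3d the groups overlapped widely, at 360 to 684 and 433 to 639, with a log2 fold change of 0.14 (adjusted p = 0.843, edgeR). The remaining class 3 genes, Sema3b, Sema3f and Sema3g, on other chromosomes, had log2 fold changes of -0.07, -0.34 and 0.29 and overlapping groups.

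**Figure D2:**
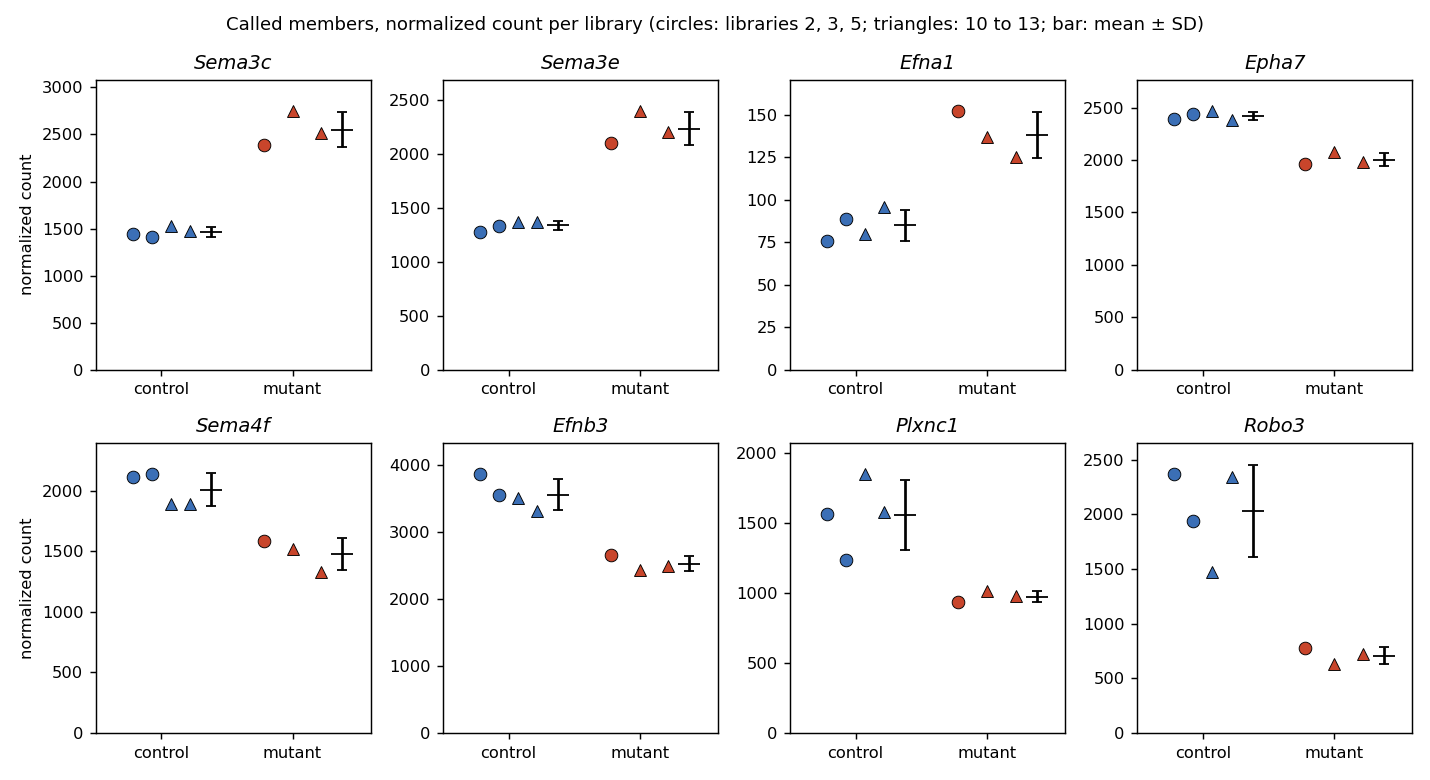
Normalized counts (y axis, from 0) of the 8 called members in each of the 4 control and 3 mutant libraries, one panel per gene, with the group mean ± SD beside the points. In every panel the groups do not overlap, with the narrowest relative gap at Epha7 and the widest at Robo3.

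The third cue to rise was Efna1 (chromosome 3, 89271733 to 89281142, minus strand), a lipid-anchored ligand of EphA receptors that is also known as a gene of endothelial cells. It measured 75.7, 88.4, 79.6 and 95.5 in controls and 152, 137 and 125 in mutants. All mutant libraries lay above all control libraries, at a low level for this set of genes. The mean rose from 84.8 ± 8.91 (SD, n = 4) to 138 ± 13.7 (SD, n = 3), a log2 fold change of 0.70 (SE 0.154, adjusted p = 0.0374, edgeR), and the changes within the low and high runs of library numbers were 0.88 and 0.59. The call was lost in 8 of 16 alternative fits, among them those without control library 2, 10 or 11 and those without mutant library 5, 12 or 13. The other A-type ephrins had log2 fold changes of -0.34 for Efna2, -0.02 for Efna3, -0.03 for Efna4 and -0.01 for Efna5, and their groups overlapped. For Efna2 the change was -0.43 within the low run, 0.03 within the high run and -0.13 without control library 2. The signs of Efna3 and Efna5 turned positive under upper quartile normalization.

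Efnb3 (chromosome 11, 69554092 to 69560205, minus strand), a transmembrane ephrin known as a midline barrier for corticospinal axons, measured 3864, 3552, 3507 and 3310 in controls and 2657, 2434 and 2490 in mutants. The lowest control library exceeded the highest mutant library by a wide margin. The mean fell from 3558 ± 229 (SD, n = 4) to 2527 ± 116 (SD, n = 3), a log2 fold change of -0.49 (SE 0.0795, adjusted p = 0.0112, edgeR), with -0.48 and -0.46 within the low and high runs. The adjusted p was 0.0637 without mutant library 12 and 0.0722 without mutant library 13. Efnb1, its relative on the X chromosome, measured 365 to 486 in controls and 241 to 337 in mutants and did not pass (log2 fold change -0.52, adjusted p = 0.101, edgeR). Efnb2, the arterial ligand of Ephb4, measured 1993 to 2432 and 2431 to 2733 (log2 fold change 0.22, adjusted p = 0.245, edgeR), so that the 3 B-type ephrins did not share a direction.

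Sema4f (chromosome 6, 82911885 to 82939769, minus strand), a membrane-anchored class 4 semaphorin, measured 2114, 2136, 1889 and 1890 in controls and 1581, 1520 and 1328 in mutants. The groups did not overlap. The mean fell from 2007 ± 136 (SD, n = 4) to 1476 ± 132 (SD, n = 3), a log2 fold change of -0.44 (SE 0.0905, adjusted p = 0.0289, edgeR), with -0.43 and -0.40 within the low and high runs. It was called in 10 of 16 alternative fits and lost in every fit that left out a library other than control library 3. Sema4d, a ligand of Plxnb1 that oligodendrocytes are known to make, measured 3148 to 3910 in controls and 2660 to 3062 in mutants and did not pass (log2 fold change -0.36, adjusted p = 0.0790, edgeR). Sema4a was higher in every mutant library than in any control library, at 1739 to 2152 against 1478 to 1731, without passing (log2 fold change 0.24, adjusted p = 0.221, edgeR). Sema4b, Sema4c and Sema4g had log2 fold changes of -0.26, -0.09 and -0.25 with overlapping groups.

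In the oligodendrocyte marker list, 8 of 8 markers had negative log2 fold changes, the sign of Sema4f, Sema4d and Efnb3 but not of Sema4a. EdgeR called 3 of them lower (Cnp, Mag and Mbp), DESeq2 called 5, and 6 had an unadjusted p of 0.05 or less. The summed level ran from 234979 to 302927 in controls and from 168300 to 207347 in mutants. In sum other lists fell further: MGE interneurons to 56.2% of control, with 7 of 10 markers called lower by edgeR, and choroid plexus to 65.3%, with 0 of 6 called. In the endothelial and mural list, 9 of 9 markers had positive changes, the sign of Efna1. The summed level ran from 12450 to 14991 in controls and from 15724 to 18936 in mutants. Of these 9 markers edgeR and limma-voom called 0 and DESeq2 called 4, and 6 had an unadjusted p of 0.05 or less, as did 18.2% of all genes. In sum other lists rose further: caudal ganglionic eminence interneurons to 170% of control, striatal projection neurons to 139% and astrocytes to 136%. No marker of the oligodendrocyte or the endothelial and mural list was at 0. The part of any of these cell types in the changes of Sema4f, Sema4d, Efnb3, Efna1 and Ephb4 was not tested.

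Among the remaining cues, Sema5a, a transmembrane semaphorin with thrombospondin repeats, measured 2573 to 4432 in controls and 5190 to 6029 in mutants, without overlap (log2 fold change 0.60, adjusted p = 0.10, edgeR). Its relative Sema5b had a log2 fold change of 0.29 and overlapping groups. The class 6 genes and Sema7a did not pass and had overlapping groups, with log2 fold changes of -0.28 for Sema6c, -0.22 for Sema6a, -0.15 for Sema6b, 0.04 for Sema6d and 0.03 for Sema7a. Ntn1, the secreted attractant and repellent of the netrin family, measured 483 to 604 in controls and 712 to 809 in mutants and missed the threshold (log2 fold change 0.46, adjusted p = 0.0534, edgeR). Ntn4, a basement membrane netrin, stood the other way, at 428 to 481 in controls and 314 to 363 in mutants (log2 fold change -0.42, adjusted p = 0.0589, edgeR). In both netrins the groups did not overlap. The Slits did not pass, at 0.32 for Slit1, -0.10 for Slit2 and -0.17 for Slit3, and neither did the lipid-anchored netrin-Gs, at 0.11 for Ntng1 and 0.16 for Ntng2. Ntng2 lies 6.83 Mb from Lhx6 on chromosome 2.

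Among receptors, the largest change belonged to Robo3 (chromosome 9, 37415669 to 37433163, minus strand), the divergent member of its family that commissural axons of the hindbrain and spinal cord need to cross the midline. It measured 2369, 1940, 1477 and 2341 in controls and 776, 628 and 720 in mutants. The controls varied among themselves, and even the lowest, library 10, lay well above every mutant library. The mean fell from 2032 ± 419 (SD, n = 4) to 708 ± 74.5 (SD, n = 3), or 34.8% of control, a log2 fold change of -1.52 (SE 0.171, adjusted p = 0.00236, edgeR). Within the low and high runs the changes were -1.46 and -1.49, and the gene was called in all 16 alternative fits. Robo1 had overlapping groups and a log2 fold change of -0.05, and Robo2 measured 4398 to 5367 in controls and 5442 to 6323 in mutants without passing (log2 fold change 0.22, adjusted p = 0.258, edgeR).

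Sequences around the RefSeq start sites of the 3 genes called in every fit are printed to show the DNA there. Each runs from 250 bases before to 50 bases after the start in RefSeq (GRCm38.p6), in the direction of the gene, where 59 of the 69 symbols had an entry. The windows are chr5:17574566-17574865 on the plus strand for Sema3c, chr5:14025026-14025325 on the plus strand for Sema3e and chr9:37433126-37433425 on the minus strand for Robo3, and capitals mark motif matches on either strand. In the deposited annotation Sema3c starts at 17574281, so its window lies inside the gene as placed there and is not upstream of that start.
Sema3c: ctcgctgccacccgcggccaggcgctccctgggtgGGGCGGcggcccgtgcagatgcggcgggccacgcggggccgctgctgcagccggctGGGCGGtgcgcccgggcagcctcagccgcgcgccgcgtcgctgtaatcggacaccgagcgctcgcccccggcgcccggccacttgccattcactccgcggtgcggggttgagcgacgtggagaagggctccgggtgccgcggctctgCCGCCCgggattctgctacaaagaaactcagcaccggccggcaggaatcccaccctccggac
Sema3e: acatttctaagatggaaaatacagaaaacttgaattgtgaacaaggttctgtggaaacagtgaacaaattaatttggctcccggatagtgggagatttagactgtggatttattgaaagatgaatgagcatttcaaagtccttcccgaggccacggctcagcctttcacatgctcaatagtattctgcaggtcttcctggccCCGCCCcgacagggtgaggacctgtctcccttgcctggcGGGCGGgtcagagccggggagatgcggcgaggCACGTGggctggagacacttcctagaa
Robo3: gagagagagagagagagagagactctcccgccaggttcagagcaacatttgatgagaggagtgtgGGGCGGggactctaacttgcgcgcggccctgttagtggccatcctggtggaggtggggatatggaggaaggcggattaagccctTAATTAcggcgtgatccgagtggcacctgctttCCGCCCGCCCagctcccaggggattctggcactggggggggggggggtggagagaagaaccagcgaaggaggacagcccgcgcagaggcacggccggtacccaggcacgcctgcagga
The letters searched were the homeodomain core TAATTA, the AP-1 motif TGACTCA, the cAMP response half-site TGACG, the E-box CACGTG, the GC box GGGCGG and the TATA box TATAAA, on both strands. TAATTA was present for Robo3, 101 bases before the start, and in 5.29% of all 32851 promoters of that length. The GC box was present in all 3 windows, with a pair of overlapping matches for Robo3, and in 35.7% of all promoters and 70.7% of the 75 promoters of the members. CACGTG was found for Sema3e and in 7.15% of all promoters. Neither TGACTCA (5.20% of all promoters), TGACG (20.8%) nor TATAAA (13.6%) was in the 3 windows. A match describes these letters and is not evidence of binding.

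Plxnc1 (chromosome 10, 94790866 to 94944578, minus strand), the plexin that binds Sema7a, measured 1566, 1240, 1852 and 1582 in controls and 935, 1012 and 978 in mutants. The mutant libraries lay close together and under the lowest control, library 3. The mean fell from 1560 ± 250 (SD, n = 4) to 975 ± 38.7 (SD, n = 3), a log2 fold change of -0.68 (SE 0.127, adjusted p = 0.0203, edgeR), with -0.57 and -0.78 within the low and high runs. It was called in 12 of 16 alternative fits, and lost without control library 11 (adjusted p = 0.0528, edgeR) or without mutant library 5, 12 or 13 (0.0770, 0.0737 and 0.102). Its ligand Sema7a, at 5252 ± 468 (SD, n = 4) in controls and 5356 ± 547 (SD, n = 3) in mutants, had overlapping groups. Plxnd1, the receptor of Sema3e, measured 5470 to 7081 in controls and 4571 to 5073 in mutants, all below controls, without passing (log2 fold change -0.40, adjusted p = 0.0841, edgeR).

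The A-type plexins, signaling partners of the neuropilins, went in both directions without passing. Plxna4 measured 4521 to 7014 in controls and 8112 to 9068 in mutants (log2 fold change 0.46, adjusted p = 0.133, edgeR), and Plxna3 958 to 1474 and 951 to 1030 (log2 fold change -0.34, adjusted p = 0.241, edgeR). Plxna1 and Plxna2 had log2 fold changes of -0.09 and 0.23, and the B-type plexins 0.08 for Plxnb1, 0.20 for Plxnb2 and -0.16 for Plxnb3. The neuropilins, co-receptors for the class 3 semaphorins, had overlapping groups and log2 fold changes of 0.11 for Nrp1 and 0.01 for Nrp2.

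Epha7 (chromosome 4, 28813131 to 28967499, plus strand), a receptor tyrosine kinase for A-type ephrins, measured 2395, 2440, 2470 and 2385 in controls and 1961, 2073 and 1978 in mutants. Both groups were tight and did not overlap. The mean fell from 2423 ± 39.4 (SD, n = 4) to 2004 ± 60.5 (SD, n = 3), a log2 fold change of -0.27 (SE 0.0647), at an adjusted p of 0.0495 (edgeR) that was just inside the threshold. Within the low and high runs the changes were -0.30 and -0.25. It was called in 4 of 16 alternative fits and in none of the 7 that left out a library. Epha4, which binds ephrins of both types, measured 9282 to 9724 in controls and 7605 to 8432 in mutants, again without overlap and without passing (log2 fold change -0.24, adjusted p = 0.115, edgeR). Epha8 measured 437 to 639 and 347 to 451, where the lowest control, library 3, lay inside the mutant range (log2 fold change -0.54, adjusted p = 0.104, edgeR).

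Of the B-type Eph receptors, Ephb4, the venous receptor for Efnb2, measured 218 to 318 in controls and 372 to 421 in mutants (log2 fold change 0.59, adjusted p = 0.0533, edgeR). Ephb3 measured 1303 to 1825 and 1056 to 1252 (log2 fold change -0.45, adjusted p = 0.0729, edgeR). In both the groups stood apart, in opposite directions, just outside the threshold. Ephb1, Ephb2 and Ephb6 had log2 fold changes of -0.13, -0.12 and 0.13. Epha2, at 83.3 ± 28.8 in controls and 126 ± 33.6 in mutants (SD, n = 4 and 3), had a log2 fold change of 0.60 (adjusted p = 0.339, edgeR), and Epha3, Epha5, Epha6 and Epha10 lay between -0.14 and 0.12.

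Unc5a, a netrin receptor that mediates repulsion, measured 3193 to 4291 in controls and 4780 to 5438 in mutants, without overlap and without passing (log2 fold change 0.38, adjusted p = 0.102, edgeR). Unc5b, Unc5c and Unc5d had log2 fold changes of -0.20, 0.23 and -0.14. Dcc, the receptor for attraction by netrins, measured 494 to 535 in mutants and 467, 166, 476 and 483 in controls, so that its log2 fold change of 0.37 (adjusted p = 0.624, edgeR) was 0.94 within the low run, which held the low control library 3, and 0.09 within the high run.

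Looser counts over the members are given beside those over all genes. An unadjusted p of 0.05 or less was reached by 26 of 70 members, 12 higher and 14 lower, or 37.1%, against 18.2% of all genes tested. Of these 26, 18 were uncalled. The mutant and control libraries did not overlap for 27 members (38.6%), 15 above and 12 below, against 19.7% of all genes (10.7% above and 9.00% below). With the run as a covariate, a fit planned with earlier results of these data known, 22 members were called (10 higher, 12 lower) beside 11.2% of all genes, and DESeq2 called 21 (9 higher, 12 lower) beside 8.39%. Within libraries 10 to 13 alone 25 members were called, 8 higher and 17 lower, beside 9.55% of all genes. DESeq2 and the fit with the run kept the 8 genes above, and both added the same 12: Sema3a, Sema5a, Ntn1, Ephb4 and Unc5a on the higher side and Sema4d, Efnb1, Ntn4, Epha4, Epha8, Ephb3 and Plxnd1 on the lower.

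**Figure D3:**
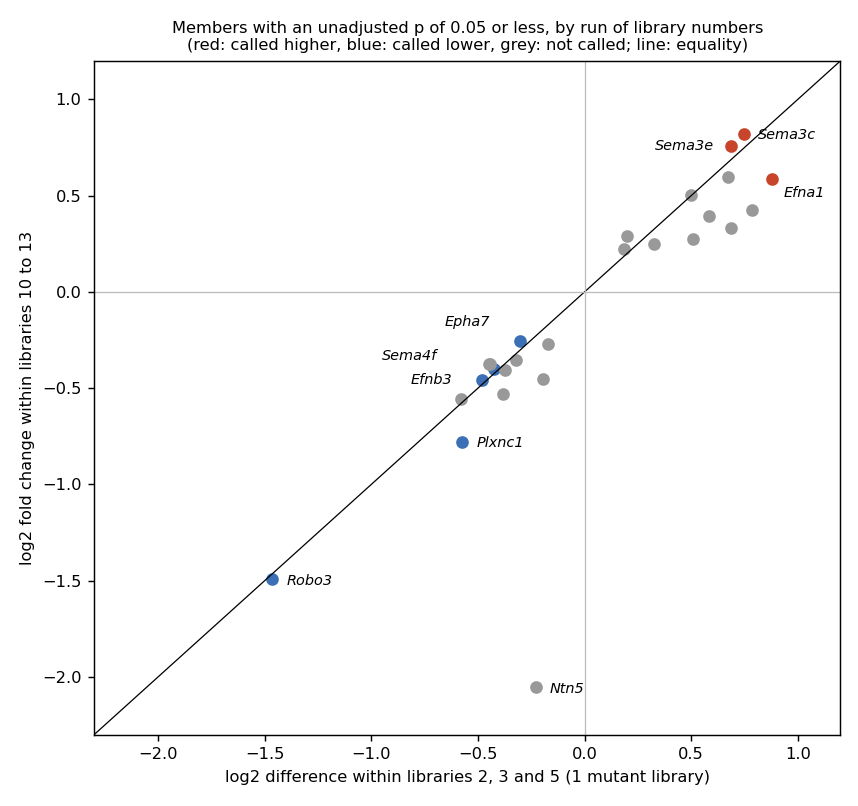
Log2 fold change within libraries 10 to 13 (y axis) against that within libraries 2, 3 and 5 (x axis) for the 26 members with an unadjusted p of 0.05 or less, with the line of equality. The y values come from an edgeR fit and the x values are differences of mean log2 CPM. The line is therefore only a guide, above all at few counts. The points were chosen by a p over these same 7 libraries, so their shared sign in the runs is no independent evidence. The grey point at -0.23 and -2.05 is an Ntn5 entry with few counts, and the low run holds 1 mutant library.

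**Figure D4:**
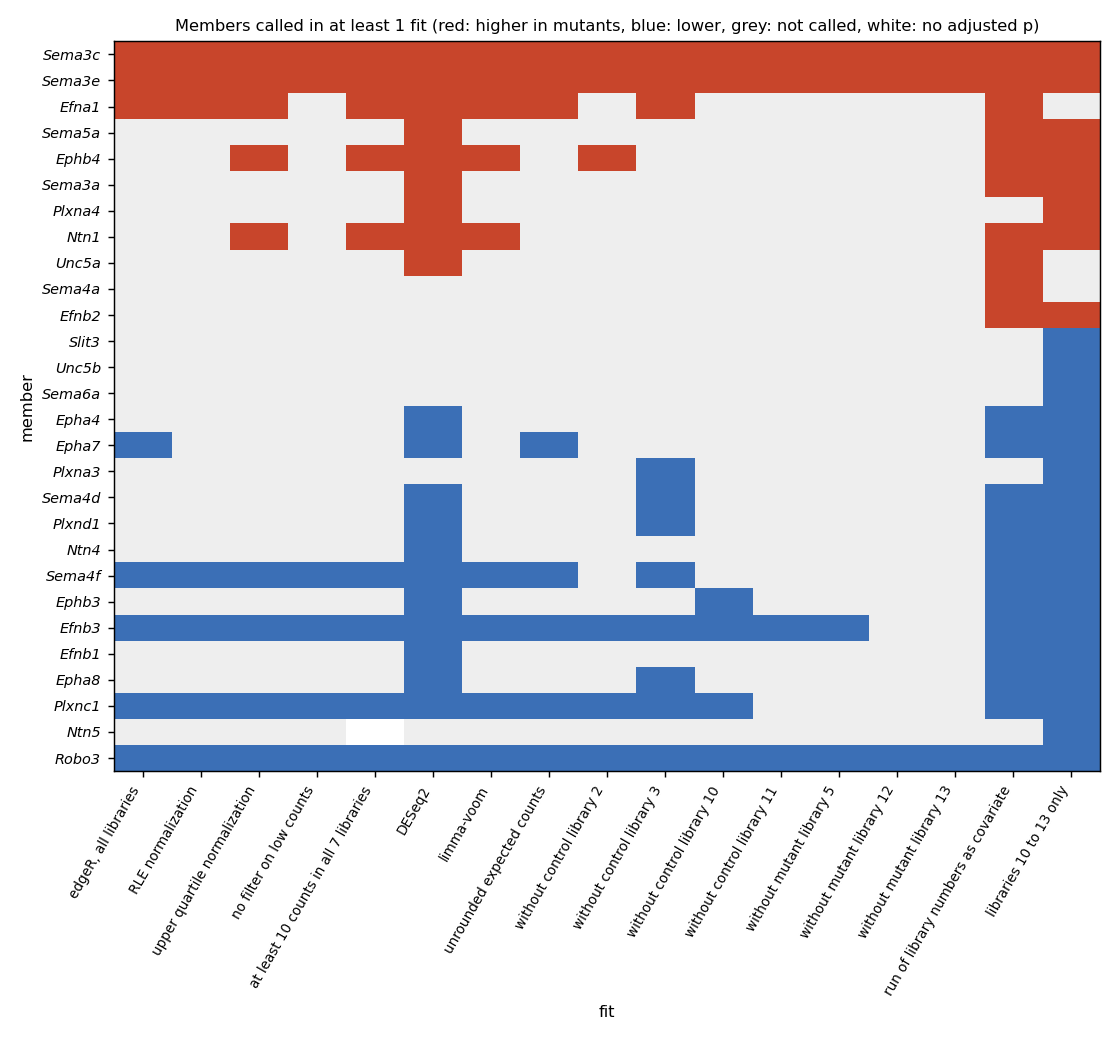
Members called in at least 1 fit (y axis) by fit (x axis, edgeR on all libraries and 16 alternatives), with red for higher, blue for lower, grey for not called and white for not tested. Sema3c, Sema3e and Robo3 are colored throughout, and the number of colored members in a fit runs from 3 without mutant library 12 or 13 to 25 within libraries 10 to 13.

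To compare levels between genes, counts were scaled to exon length and library size (FPKM). The length was that of the annotated exons and not of the transcripts expressed, so rankings between genes depend on the annotation. In controls 18 entries stood at 10 FPKM or more, 46 from 1 to 10 and 7 under 1. The highest were the membrane-anchored Sema6b at 45.4 ± 3.6 FPKM and the lipid-anchored Sema7a at 44.7 ± 4.0 FPKM (SD, n = 4), which did not differ beyond their spread. They were followed by Ephb6, an Eph receptor without kinase activity, at 36.8 ± 2.8 FPKM, Epha4 at 33.0 ± 0.66 FPKM and Efnb3 at 31.4 ± 2.0 FPKM, the last 2 within their spread of each other. The highest of the netrin receptors was Unc5a at 26.4 ± 3.4 FPKM, and the next, Unc5b, stood at 5.44 ± 0.70 FPKM. Plxnd1 (24.7 ± 3.1 FPKM) and Plxna1 (21.1 ± 4.4 FPKM) led the plexins and overlapped in their spread.

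In the smaller families, Ntng2 (14.4 ± 2.4 FPKM) stood above Ntng1 (2.69 ± 0.30 FPKM) and Nrp1 (10.0 ± 0.39 FPKM) above Nrp2 (3.42 ± 0.70 FPKM), whereas the spreads of Slit1 (12.9 ± 2.9 FPKM) and Slit3 (7.79 ± 2.4 FPKM) met. Among the ephrins Efna3 followed Efnb3 at 17.1 ± 1.8 FPKM. The netrins were low throughout, led by Ntn4 (3.41 ± 0.17 FPKM) and Ntn1 (2.46 ± 0.26 FPKM). On this scale Robo2 (8.55 ± 0.73 FPKM) and Robo3 (8.43 ± 1.7 FPKM) were level in controls, whereas in mutants Robo3 stood at 2.94 ± 0.309 FPKM (SD, n = 3). The exon lengths of Robo2 and Robo3 were 16516 and 6765 bases, and their control means 5031 and 2032 normalized counts.

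**Figure D5:**
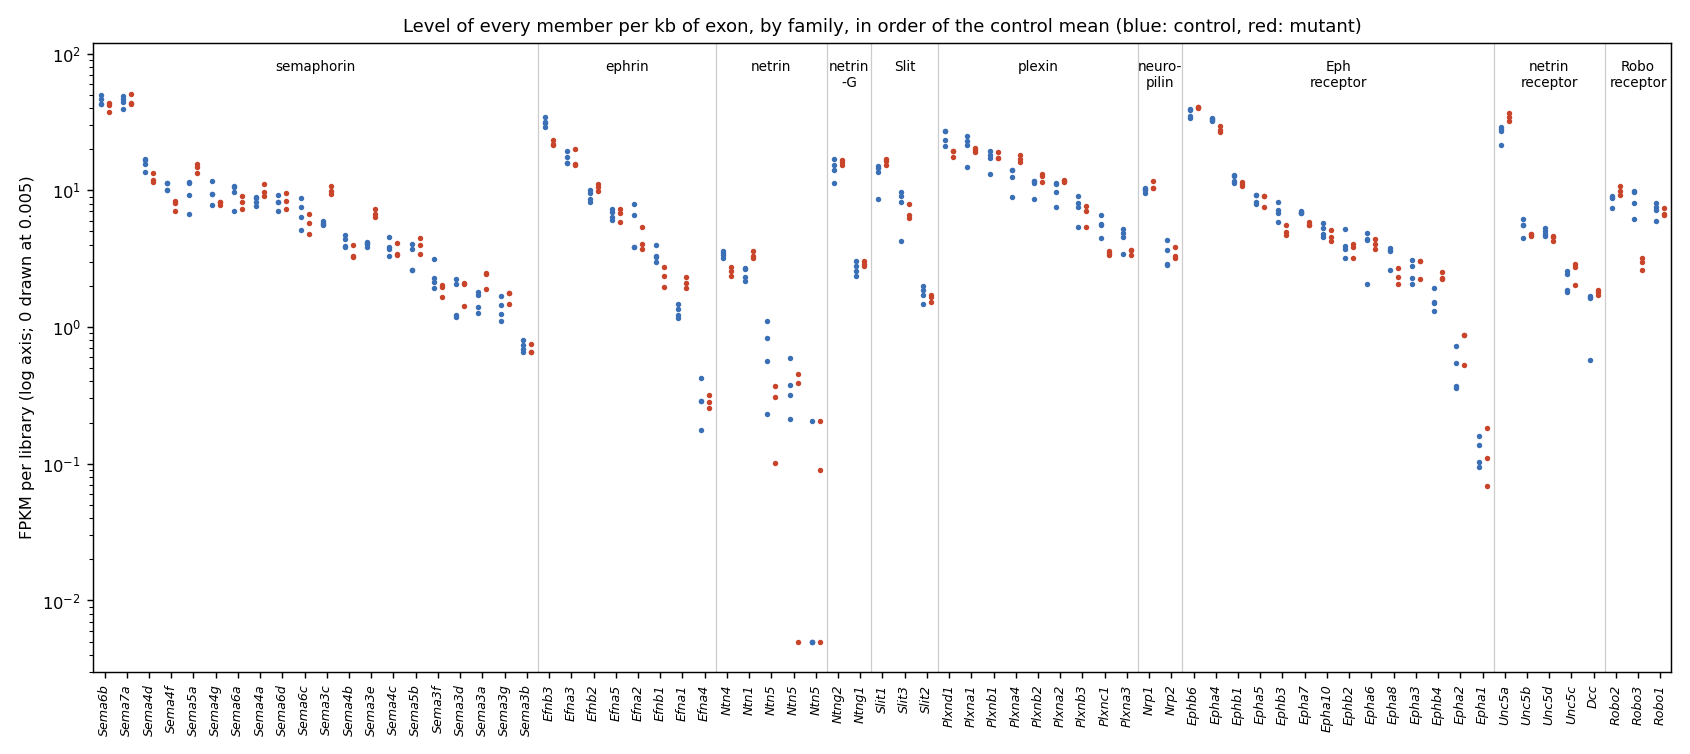
Level of every member in each library (FPKM, log axis, values of 0 drawn at 0.005), grouped by family and ordered within it by the control mean, with controls in blue and mutants in red. Sema6b (45.4 FPKM) and Sema7a (44.7 FPKM) are highest and the 3 Ntn5 entries, Epha1, Efna4 and Epha2 are lowest.

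The members with fewest counts do not bear a comparison. Efna4 averaged 16.7 ± 5.77 in controls and 16.3 ± 1.86 in mutants, and Epha1 17.2 ± 4.26 and 16.9 ± 8.08 (SD, n = 4 and 3). The 3 Ntn5 entries overlap each other and share reads with Sec1, so their counts are uncertain. The best counted of them measured 31.8, 13.1, 62.4 and 46.8 in controls and 17.2, 20.7 and 5.68 in mutants (log2 fold change -1.41, adjusted p = 0.243, edgeR), the next had a log2 fold change of -0.42, and the third, at 0 in 3 of 4 control libraries, was not tested. The exons of 19 members overlapped another gene, but those of the 8 called members did not.

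Genes that act with these families were examined next. In lists of other cues, adhesion co-receptors and intracellular effectors, 110 genes were tested, of which 1 rose and 3 fell (4.85% of all genes were called either way). Srgap1, a GTPase-activating protein that acts below Robo receptors, rose from 875 ± 144 (SD, n = 4) to 1382 ± 135 (SD, n = 3; log2 fold change 0.66, adjusted p = 0.0289, edgeR). Rnd1, a small GTPase that binds plexins, fell from 1461 ± 206 to 843 ± 90.8 (log2 fold change -0.79, adjusted p = 0.0112, edgeR). The contactin Cntn6 fell from 681 ± 87.1 to 417 ± 35.2 (log2 fold change -0.71, adjusted p = 0.0174, edgeR). Erbb4, the neuregulin receptor of interneurons, fell from 2300 ± 483 to 1417 ± 147 (log2 fold change -0.70, adjusted p = 0.0485, edgeR). By list, 33 other cues gave 1 call, 17 co-receptors gave 1 and 60 effectors gave 2, and the median log2 fold change of the 110 genes was -0.02. By limma-voom 0 of the other cues, the list that holds Erbb4, were called. Without mutant library 12 or 13, edgeR called 0 of the listed genes higher and 0 lower.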

How the data were processed

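Total RNA of 7 forebrain pools was sequenced as single-end reads of 36 bp. Per the submitters' processing notes, reads were trimmed with cutadapt 1.9.1, aligned with Bowtie2 2.2.9 to GRCm38 (Ensembl release 84 transcripts) and counted with RSEM 1.2.31. The authors deposited RSEM expected counts per gene, without normalization, and strandedness is not given in the sources used here. A further deposited table holds the authors' DESeq2 comparison of the genotypes (log2 fold changes and p-values), from which only gene symbols were taken. The deposited exon annotation gave positions, biotypes and exon lengths.

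Expected counts were rounded. The 19684 of 47729 genes that reached 10 counts in 3 or more libraries were scaled by TMM factors and compared between genotypes in edgeR 4.0.16 (quasi-likelihood F-test; limma 3.58.1, R 4.3.3), without covariates, at a Benjamini-Hochberg adjusted p of 0.05 over all genes. The study's own tool, DESeq2 (version 1.42.0 here), was an alternative, as were limma-voom, other normalizations and filters, unrounded counts, the run of library numbers and leaving out each library. The procedure was tested on simulated data: no change had a wrong sign among genes called, but genes with few counts, and some well-counted genes with the smaller change, were missed, so that an initial criterion for recovery over all genes was not met and was replaced by criteria for bias, sign, false calls and recovery of well-counted genes. Columns were grouped by genotype, and 0 columns of sample values were unused. Between libraries of a genotype the chi-square per degree of freedom was 10.2 to 72.6, so each counted as 1 replicate. Limits from 3 counts cover counting error only. Reads shared with other genes were assessed from 36-base words.

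Members and lists were chosen with earlier results of these data known. Members past the adjusted threshold are given in full, those with an unadjusted p of 0.05 or less with values, as are the 2 highest of each family and those with fewest counts. Genes of the pathway lists are named when called.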

Additional observations from a re-analysis of the deposited data

Results flagged for a closer look

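In 3 of 70 members tested, control library 3 lay below the other control libraries by more than the spread among them allows at the 95% level for 4 samples. Chance alone marks about 1 in 20 groups. Epha8 measured 436.8 in that library against 606.4 to 639.3 in the other controls. Dcc measured 165.7 against 467.2 to 482.8. Plxnb2 measured 2173 against 2878 to 2981. Control library 3 was the lowest of the 4 controls for 42 of 70 members, and for 33.0% of all genes tested. Without it, edgeR called 11 members beside 971 of all 19409 genes tested, with Epha8, Plxna3, Plxnd1 and Sema4d added and Epha7 lost.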

How the results depend on the processing

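No called member changed sign under any of the 16 alternative fits. Beside the reported 3 members higher and 5 lower, 5 were called higher under upper quartile normalization, under a filter of 10 counts in all 7 libraries and by limma-voom, with 4 lower in each, so that the split turned toward higher calls. DESeq2 called 9 higher and 12 lower, a covariate for the run of library numbers gave 10 and 12, and libraries 10 to 13 alone gave 8 and 17. For all genes the counts were 585 higher and 369 lower, and became 969 and 727 by DESeq2, 1213 and 992 with the run, and 1068 and 799 in libraries 10 to 13. They were 653 and 311 under upper quartile normalization, 612 and 413 under the filter on all 7 libraries, and 608 and 355 by limma-voom. For the pathway lists, 1 higher and 3 lower became 3 and 6 by DESeq2, 6 and 14 with the run, and 9 and 13 in libraries 10 to 13, and 2 were higher under upper quartile normalization and under the stricter filter. The cause of these shifts was not tested. Leaving out a library gave 2 to 3 members higher and 1 to 8 lower, 223 to 589 genes higher and 79 to 382 lower, and 0 to 2 pathway genes higher and 0 to 5 lower. The fewest members, 3, were called without mutant library 12 or 13, and 4 without control library 11 or mutant library 5. All-gene calls were also fewest without mutant library 12 (252 higher, 135 lower) or 13 (223 and 79). They were 383 and 206 without control library 11 and 321 and 137 without mutant library 5. Efnb3 was lost without mutant library 12 or 13, whereas Robo3, Sema3c and Sema3e were kept throughout. RLE normalization and unrounded counts left the number of members within 1 of the reported 8. No paired analysis was possible because the columns carry no replicate numbers.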
